A study of Drosophila melanogaster with 6 samples.

Results

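The comparison described here set Drosophila melanogaster S2 cells that had received 10 ng of pAc-Clk against S2 cells that had received a control transfection. Its members were the arrays titled for that dose and for the control, 4 of the 6 arrays of the series, with 2 arrays in each group. S2 is a haemocyte-like line from fly embryos, and no strain, genotype or added agent is named for any group. Total RNA was taken 48 h after transfection. The design text gives the control as the empty vector. pAc vectors carry the promoter of the actin 5C gene, and after a transient transfection an unknown share of the cells holds the plasmid, so each value is an average over cells with and without it. In such bulk RNA, fewer cells making a transcript and less of it per cell cannot be told apart. Nothing in the labels says that arrays 1 and 2 of a group came from separate cultures, so the spread that enters the p-values may be technical.

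Clk and its partner Cyc are bHLH-PAS transcription factors that together bind E-box elements of clock genes. Among the genes it drives are per and tim, whose products enter the nucleus and repress that pair, and vri and Pdp1, whose products act on transcription of Clk itself. S2 cells are widely used to study this pair because they are not themselves rhythmic.

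The log2 scale used here is an inference from the values. Log2 of the deposited numbers as they stand would multiply each change by 1.44. Of 18952 probe sets, 183 are controls, and 8221 of the others reached a signal of 4 on at least 2 of the 4 arrays and were tested. Of these 7047 carry 1 gene symbol (6488 genes), 228 several and 946 none. A total of 7929 reached that signal on all 4 arrays, whereas 23 reached it on the Clk arrays alone and 24 on the control arrays alone. As a background mark, the highest Tag control of each array, which detects no fly transcript, read 2.96 and 2.97 on the controls and 2.95 and 3.22 on the Clk arrays. Arrays 1 and 2 of the 10 ng dose differed more from each other than the controls did. The difference between them exceeded 1 for 230 probe sets (2.80%), against 53 (0.645%) between the controls. The 9 hybridisation spike probe sets averaged 10.8 and 10.9 on the controls, 9.85 on 10 ng array 1 and 10.5 on 10 ng array 2. The 5' minus 3' signal of actin, eIF-4a and GAPDH was -0.75 and -0.75 on the controls, -1.25 on 10 ng array 1 and -0.64 on 10 ng array 2. How far these differences between arrays enter the results was not tested.

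The first question was whether the transfected gene could be seen. Clk read 2.50 and 2.84 on the control arrays and 3.46 and 3.47 on the 10 ng arrays. Both Clk arrays lay above both controls, and both controls lay under the highest Tag control of their array. Set against that mark of the control arrays, the mean at 10 ng was 1.41-fold higher. The highest Tag control read 2.95 and 3.22 on the 10 ng arrays, so Clk lay near background there as well. A rise of Clk is therefore not established by these values. The probe set did not reach the signal filter and was not tested in the main fit. With no filter its unadjusted p was 0.00525 and its adjusted p 0.919 (limma). The sources used here do not say whether the plasmid's Clk transcript holds the sequence that this probe set reads. A larger difference between the groups lay elsewhere on the array. A pair of control probe sets carries the sequence entry of firefly luciferase in its names. That identity comes from general knowledge, since the annotation used here names no gene for control probe sets. Luciferase is a common reporter in transfected cells. The first of these probe sets read 3.96 and 4.14 on the controls and 11.4 and 11.1 on the 10 ng arrays. The second read 3.15 and 3.35 on the controls and 11.5 and 11.4 on the 10 ng arrays. The groups did not overlap in either, and the mean differences were 7.17 and 8.17. No other of the 98 control probe sets specific to the fly array differed by more than 0.613 in size. Control probe sets did not enter the fit, and no test was run on these values. The labels name no reporter plasmid. A reporter given with pAc-Clk alone and a reporter given to all cells but read more strongly with Clk cannot be told apart.

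**Figure D1:**
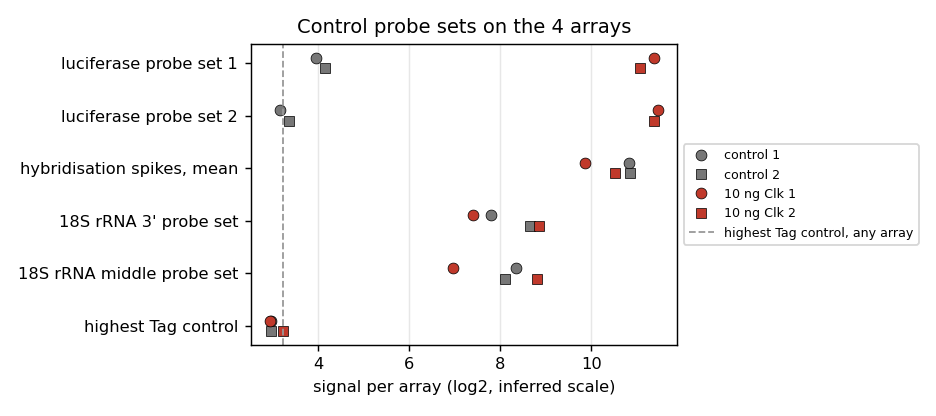
Control probe sets on the 4 arrays. The x axis is the signal per array (log2, inferred scale), grey points are control transfections, red points are 10 ng Clk arrays, circles are array 1 and squares array 2, and the dashed line is the highest Tag control of any array (3.22). The luciferase probe sets sit between 3.15 and 4.14 on the controls and between 11.1 and 11.5 at 10 ng, whereas the mean of the hybridisation spikes is lowest on 10 ng array 1 (9.85).

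Against the control transfection, 10 of 8221 probe sets rose at 10 ng and 0 fell (limma, Benjamini-Hochberg adjusted p under 0.05). The share called higher was 0.122% and the share called lower 0%. Of the 10, 7 stand for 5 named genes, tim, Timp, Mur2B, CG10514 and CG31954, and 3 carry no gene symbol in the annotation used here. On all 10 both Clk arrays lay above both controls, as on 284 (3.45%) of the 8221. A call already favours such separation, so it is not separate support. At an unadjusted p under 0.05, 36 probe sets (0.438%) were higher and 134 (1.63%) lower, 2.07% together. Of the 10 called probe sets, 6 had reached the filter through the Clk arrays alone. These were Timp 1641476_a_at, tim 1631468_a_at, CG10514, CG31954, 1640736_at and 1625124_at. All 10 had a mean of at least 4 over the 4 arrays, a filter that does not use the group labels. With that filter 8158 probe sets were tested and the same 10 were called. The mean contains the Clk values that admitted the 6, so this does not show that their calls are free of the filter. Control means of the called probe sets lay under 5 in 9 of 10 cases.

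tim encodes the partner of Per in the repressor complex of the clock. Its brighter probe set, 1634188_a_at, read 3.27 and 4.03 on the controls and 8.56 and 8.18 at 10 ng. The mean rose from 3.65 ± 0.54 to 8.37 ± 0.27 (SD, n = 2 arrays each), a log2 change of 4.72 (95% interval 4.09 to 5.35, 26.4-fold, limma adjusted p = 2.92e-05). The second, 1631468_a_at, read 2.13 and 2.53 on the controls, under the highest Tag control of both arrays, and 6.03 and 6.78 at 10 ng. Set against that control, its mean at 10 ng was 10.8-fold higher (limma adjusted p = 4.11e-05 for the values as fitted). That figure allows for background but not for the spread between arrays.

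Timp encodes the fly's tissue inhibitor of metalloproteinases, a secreted protein that blocks the enzymes that cut extracellular matrix. Its probe set 1641476_a_at, admitted to the test by the Clk arrays alone, had the smallest p-value of all tested. It read 2.68 and 3.14 on the controls, of which the second alone exceeded the Tag mark of its array, and 7.88 and 7.82 at 10 ng. With the control below the Tag mark set to that mark, the mean at 10 ng was 27.9-fold higher. That figure allows for background but not for the spread between arrays (limma adjusted p = 5.24e-06 for the values as fitted). The other, 1632533_at, was above background on every array, at 4.15 and 4.2 against 7.95 and 7.64. Its log2 change was 3.62 (95% interval 3.13 to 4.12, 12.3-fold, limma adjusted p = 2.92e-05). tim and Timp were the 2 genes with more than 1 called probe set, among 402 genes with several tested probe sets. In each gene 1 of them, tim 1631468_a_at and Timp 1641476_a_at, had reached the filter through the Clk arrays alone. Its call is therefore not separate support for the other.

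Mur2B, a mucin-related gene, read 4.30 and 4.25 on the controls and 6.41 and 6.79 at 10 ng, a log2 change of 2.32 (95% interval 1.82 to 2.81, 4.99-fold, limma adjusted p = 0.00116). CG10514 belongs to a family of ecdysteroid kinase-like genes. It read 3.16 and 3.28 against 5.0 and 4.78, a log2 change of 1.67 (95% interval 1.24 to 2.10, limma adjusted p = 0.00523). CG31954 read 3.61 and 3.54 against 4.77 and 4.96, a log2 change of 1.29 (95% interval 0.86 to 1.72, limma adjusted p = 0.0423). For these 3 genes the control SDs were 0.035, 0.088 and 0.053, and every value lay above the Tag mark of its array. The controls of CG10514 and CG31954 lay not far above that mark (2.96 and 2.97). A small SD there says little about the spread at higher signal. Both genes had reached the filter through the Clk arrays alone. When 1 array of the dose is left out, the spread comes from the controls and the remaining array is assumed to vary as they do. In such fits the call of Mur2B was lost without 10 ng array 2 (log2 change 2.13, adjusted p = 0.0559). The calls of CG10514 (1.56 and 1.78, adjusted p = 0.124 and 0.0559) and CG31954 (1.39 and 1.19, adjusted p = 0.254 and 0.208) were lost without array 1 and without array 2 of that dose.

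The 3 called probe sets with no gene symbol differed in brightness. The probe set 1627551_s_at was the 1 bright member among the 10, at 9.62 and 9.97 on the controls and 11.9 and 11.8 at 10 ng. Its log2 change was 2.06 (95% interval 1.73 to 2.40, 4.18-fold, limma adjusted p = 0.000103), with an interval narrower than that of any other called probe set. The suffix s on its name marks, on this array design, probes that match more than 1 transcript. The probe set 1640736_at rose from 3.33 and 3.83 to 5.91 and 5.79 (log2 change 2.27, limma adjusted p = 0.00138). The probe set 1625124_at rose from 3.80 and 3.78 to 5.28 and 5.0 (log2 change 1.35, limma adjusted p = 0.0423). In the fits with 1 array of the dose, 1627551_s_at passed both times. The calls of 1640736_at and 1625124_at were lost without array 1 (adjusted p = 0.124 and 0.439) and without array 2 (adjusted p = 0.0587 and 0.110).

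**Figure D2:**
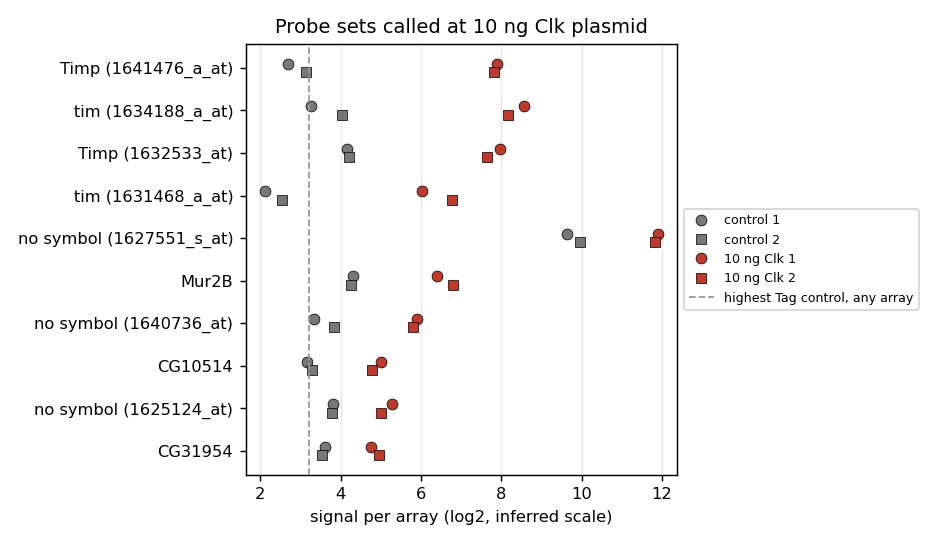
The 10 called probe sets in order of p-value. The x axis is the signal per array (log2, inferred scale), grey points are control transfections, red points are 10 ng Clk arrays, circles are array 1 and squares array 2, and the dashed line is the highest Tag control of any array (3.22). In every row both red points lie to the right of both grey points, and 9 of the 10 control means lie under 5.

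These calls rest on which dim probe sets are tested. With no filter, limma called 0 of 18769, where the smallest adjusted p was 0.610 and 546 had an unadjusted p under 0.05. It called 0 of 12105 when the filter at 4 was set on face-value log2, which admits dimmer probe sets (smallest adjusted p = 0.0920, 359 unadjusted). With the face-value scale and the 8221 probe sets of the main filter, the same 10 were called. This outcome was fixed in advance, as that scale multiplies every value by 1.44 and leaves the limma p-values unchanged.

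**Figure D3:**
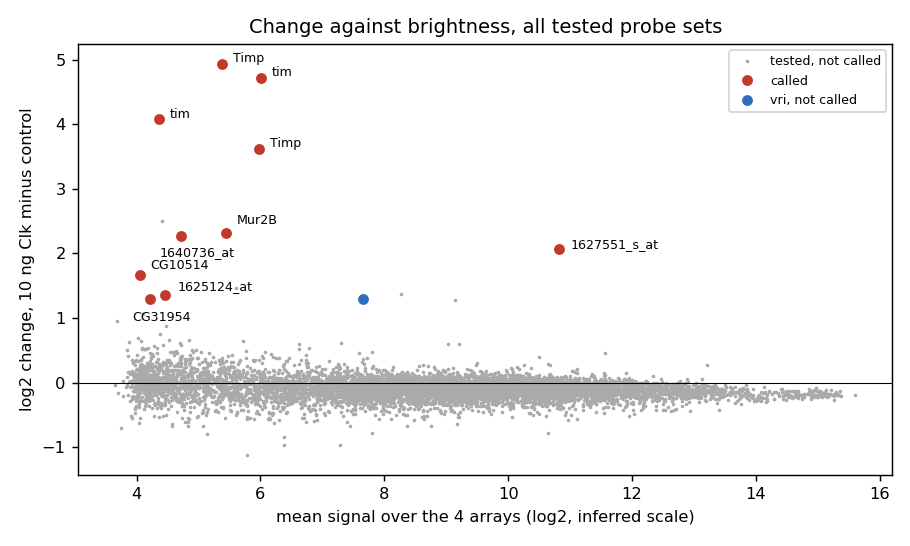
Change against brightness for the 8221 tested probe sets. The x axis is the mean signal over the 4 arrays and the y axis the log2 change (10 ng Clk minus control), both on the inferred log2 scale, with called probe sets in red, vri in blue and all others in grey. The called probe sets sit between 1.29 and 4.94 on the y axis as fitted. Timp 1641476_a_at (4.94) and tim 1631468_a_at (4.08) have a control or both controls under the background mark. The text sets these against that mark. Most called probe sets are at the dim end, apart from 1627551_s_at, whose mean signal is 10.8.

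Among the other clock genes none passed. vri encodes a bZIP repressor of Clk. It read 6.72 and 7.32 on the controls and 8.42 and 8.20 at 10 ng, so the groups did not overlap. Its log2 change was 1.29 (95% interval 0.74 to 1.84, 2.45-fold, limma adjusted p = 0.256). Over 17 other settings its adjusted p ran from 1.15e-05 to 1.00, and it passed in 5, among them with 1 probe set per gene (adjusted p = 0.000326) and without control array 2 (log2 change 1.59, adjusted p = 0.000860). per, the partner of tim in the repressor, read 4.29 and 4.39 on the controls and 4.08 and 5.16 at 10 ng. The 10 ng arrays lay on either side of the controls, and the change was 0.28 (95% interval -0.40 to 0.96). Pdp1, a bZIP activator of Clk, read 6.44 and 7.34 against 6.73 and 7.39, a change of 0.17 (95% interval -0.55 to 0.89).

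cwo, which encodes a bHLH-Orange repressor of the same targets, had 2 tested probe sets. The brighter, 1623277_at, read 9.38 and 9.76 on the controls and 8.54 and 10.5 at 10 ng. Its change was -0.05, with a 95% interval from -1.08 to 0.97, and the 10 ng arrays differed 3.86-fold from each other. The dimmer, 1631722_at, read 6.21 and 6.31 against 5.37 and 6.38. On both, as on per, 10 ng array 1 was the lowest of the 4 arrays and array 2 the highest. cyc, the partner of Clk, read 8.0 and 8.03 against 7.87 and 7.68, a change of -0.24 (95% interval -0.69 to 0.20). cry, the blue-light photoreceptor gene of the clock, read between 2.35 and 2.69 on the 4 arrays and was not tested. Of 8 core clock genes 6 were tested by their brightest probe set and 1, tim, rose, beside 0.122% of all probe sets. Their median change was 0.23, against -0.09 over all tested probe sets.

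**Figure D4:**
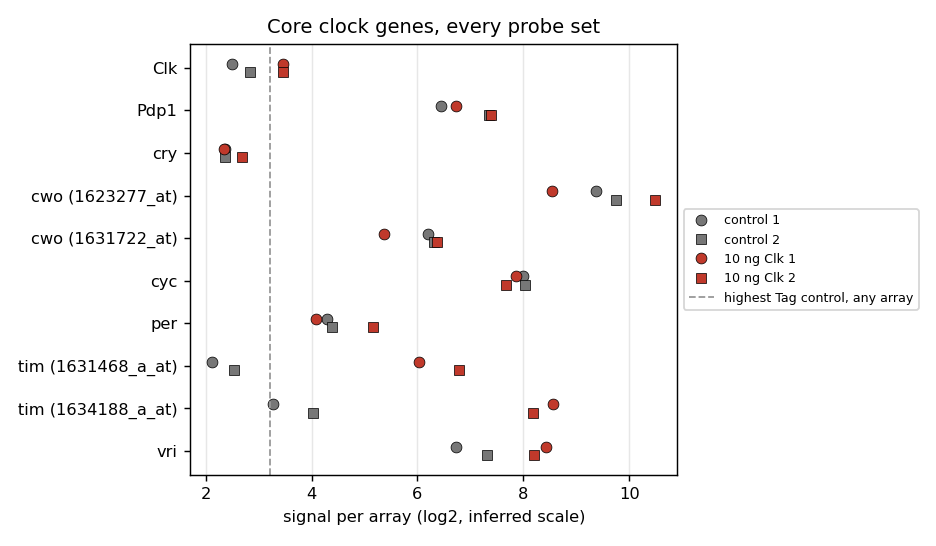
Every probe set of the 8 core clock genes. The x axis is the signal per array (log2, inferred scale), grey points are control transfections, red points are 10 ng Clk arrays, circles are array 1 and squares array 2, and the dashed line is the highest Tag control of any array (3.22). Both probe sets of tim and that of vri separate the groups upward, Clk and cry lie near the background, and the 10 ng arrays of cwo and per lie on both sides of the controls.

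Genes whose products act on clock proteins after translation did not pass. As 0.122% of all tested probe sets were called, 0 calls in a list this small says little about its genes, here and for the lists below. All 8 tested of 13 listed kinase, phosphatase and ubiquitin genes lay between -0.35 and 0.03, with a median of -0.17. The smallest p-values were those of ctrip, a ubiquitin ligase gene (-0.35, 95% interval -0.72 to 0.02), wdb, a regulatory subunit of protein phosphatase 2A (-0.24, -0.55 to 0.08), and slmb, the F-box gene that marks Per for degradation (-0.24, -0.56 to 0.09). Of 21 listed bHLH and bHLH-PAS genes, 13 were tested and 0 passed (median -0.16, range -0.42 to 0.06). They were led by tai, a steroid receptor coactivator (-0.42), da (-0.31) and SREBP (-0.18). Of 13 listed output genes of fly heads, 2 were tested, Ugt36A1 (0.03) and trpl (-0.02).

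In the families of the called genes no other tested member passed. Of 11 tested genes of the matrix and metalloproteinase list, Timp rose and none of the others passed. Among them Mmp2, an enzyme that Timp inhibits, read 9.22 and 9.68 on the controls and 8.45 and 9.40 at 10 ng, a change of -0.53 (95% interval -1.16 to 0.10). LanA, a laminin chain, differed by -0.29 (-0.60 to 0.02). The list's median was -0.20. Of 20 listed mucin genes all had a probe set and 3 were tested. Beside Mur2B these were Hmu (-0.14) and Mur29B (-0.10), and the other 17 did not reach the filter. Of 48 listed ecdysteroid kinase-like genes 42 had a probe set and 11 were tested. CG10514 rose, and the other 10 lay between -0.13 (CG31436) and 0.09 (CG32195). CG10550 was bright, at 10.91 and 11.02 on the controls and 11.09 and 10.91 at 10 ng. CG10513 read between 2.22 and 2.43 on the 4 arrays and was not tested.

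Genes that respond to infection or stress were also examined. Both groups were transfected, so an effect of transfection that they share would not show in this comparison. Of 16 tested immune response genes 0 passed, beside 0.122% of all tested probe sets. Their changes ran from -0.24 to 0.37 with a median of 0.04. DptB, an antimicrobial peptide gene, read 13.1 and 13.0 on the controls and 13.5 and 13.2 at 10 ng (0.28, 95% interval -0.04 to 0.59), and Dif, an NF-kappaB gene, 4.79 and 4.62 against 5.03 and 5.12 (0.37, -0.08 to 0.82). Tl, the Toll receptor gene, differed by -0.24. All 8 tested heat shock genes lay below 0 (range -0.31 to -0.11), as did 76.4% of all tested probe sets, and none passed. They were led by the chaperone genes Hsc70-3 (-0.28), Hsp26 (-0.31) and Hsp27 (-0.29). The list's median was -0.27. On both Clk arrays 7 of the 8 were lower than on both controls, as were 23.5% of all tested probe sets. After quantile normalization the median was -0.12 and 7 of 8 lay below 0, as did 49.3% of all tested probe sets. On that scale 2 of the 8 and 11.8% of all tested probe sets were lower on both arrays. Of 7 tested ecdysone response genes 0 passed, led by the receptor genes usp (-0.28), Hr39 (-0.28) and Eip78C (-0.19).

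Haemocyte genes were bright on all 4 arrays. Of 12 listed markers 11 were tested, with control means from 8.32 to 14.1. They include the GATA factor srp, the clotting gene Hml, the phagocytic receptors NimC1, eater and crq, and the peroxidasin gene Pxn. gcm, a factor needed for embryonic haemocytes, read at most 3.24. Of the markers of crystal cells and lamellocytes, which are themselves haemocyte classes, 7 of 8 lay above the Tag mark on all 4 arrays. Of the markers of other cells, this held for 2 of 6 for muscle, 2 of 6 for fat body and 3 of 6 for glia. It also held for 4 of 8 for neurons and 5 of 7 for the germline. The glial factor repo read between 2.52 and 2.53, the germline gene vas between 2.56 and 2.60, the muscle gene Mlc2 between 2.68 and 2.81 and the fat body gene apolpp between 2.59 and 2.67, all under that mark. The neuronal gene elav read 6.09 and 6.34 on the controls and 5.89 and 6.40 at 10 ng, and aub, a Piwi-family gene on the germline list, 10.5 and 10.4 against 10.7 and 10.4. None of the tested members of these marker lists passed. The 11 haemocyte genes differed by -0.39 to -0.13 with a median of -0.25, and 10 of them were lower on both Clk arrays than on both controls. Over all tested probe sets this held for 1928 (23.5%), against 284 (3.45%) higher on both. Among the 743 probe sets with a mean signal of 12 or more it held for 355 (47.8%). After quantile normalization 3 of the 11 haemocyte genes and 970 of all tested probe sets (11.8%) were lower, and 987 (12.01%) higher, and the median of the 11 was -0.08. All 11 still lay below 0, as did 49.3% of all tested probe sets on that scale.

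**Figure D5:**
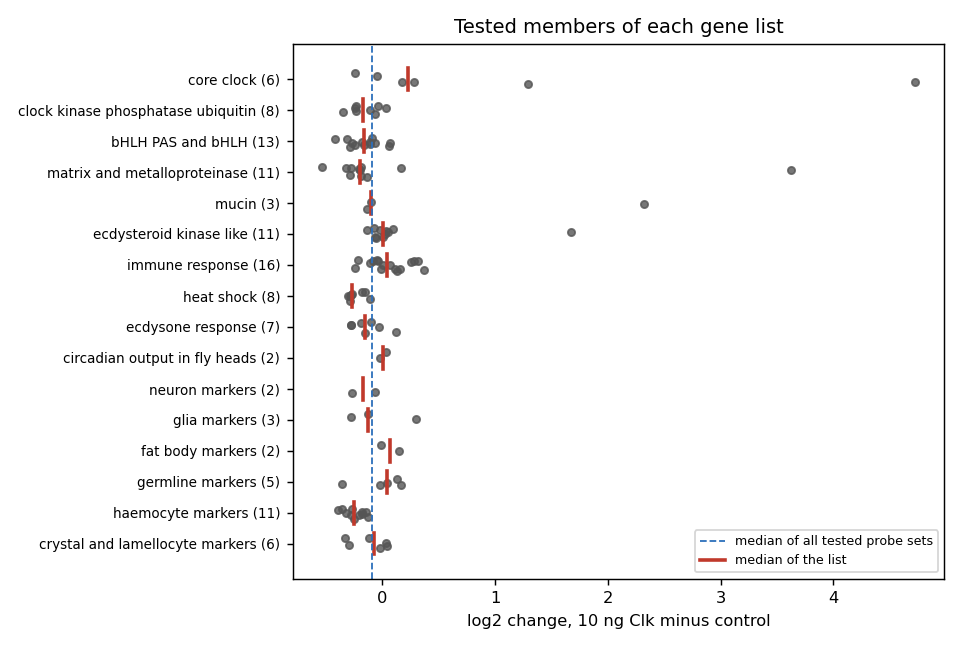
Tested members of each gene list. The x axis is the log2 change (10 ng Clk minus control), each point is 1 gene by its brightest probe set, red bars are list medians, the dashed line is the median of all tested probe sets (-0.09), and the number after each name is how many members were tested. The points that stand apart are tim (4.72), Timp (3.62), Mur2B (2.32), CG10514 (1.67) and vri (1.29), whereas heat shock and haemocyte genes lie left of the line with medians of -0.27 and -0.25.

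Of the tested probe sets, 17 differed by more than 1 on the log2 scale, the 10 called and 7 others. Of those 7, vri, CG13069, TTLL6A and CG4789 had both Clk arrays above both controls. CG13069 read 5.39 and 4.37 on the controls and 5.99 and 6.69 at 10 ng (1.46, limma adjusted p = 0.986). TTLL6A, of the tubulin-modifying ligase family, read 4.0 and 3.13 against 4.26 and 5.01 (1.07). CG4789, singled out after its values were seen, read 4.65 and 1.69 against 5.26 and 6.07. The other 3, also singled out after their values were seen, overlapped between the groups. Arc1, which encodes a capsid-forming protein related to retrotransposon Gag, read 7.5 and 9.50 on the controls and 6.95 and 12.6 at 10 ng, the largest distance between replicates among these 7. The small heat shock gene l(2)efl read 8.86 and 6.31 against 8.46 and 9.45, and spri 5.71 and 6.99 against 3.49 and 6.96. Leaving out 1 control array changed the call of several of them, with the lone control assumed to vary as the 10 ng arrays do. Without control array 1, CG13069 (log2 change 1.97), TTLL6A (1.5), CG4789 (3.98) and l(2)efl (2.65) passed upward and spri (-1.77) downward. Without control array 2, Arc1 passed upward (2.27).

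Of 273 uncalled probe sets above background on all arrays with both Clk arrays higher, the 10 largest differences were those of CG13069, vri, TTLL6A, CG16762, CG16957, GstD4, 1632995_at, IM33, Inx3 and Ugt35C1. CG16762 read 3.17 and 3.25 on the controls and 4.33 and 4.0 at 10 ng (0.96, adjusted p = 0.389). GstD4, a glutathione transferase gene, read 4.06 and 3.94 against 4.76 and 4.76 (0.76). The gap-junction gene Inx3 read 6.19 and 6.47 against 6.88 and 6.98 (0.60), and the glycosyltransferase gene Ugt35C1 8.70 and 8.76 against 9.46 and 9.19 (0.60). CG16957 differed by 0.88, 1632995_at by 0.69 and IM33, an immune-induced peptide gene, by 0.64. Of these 10, vri and CG16762 had the smallest adjusted p, and for the others it was 0.986 or more.

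The 10 largest uncalled differences downward, among 1928 such probe sets, were smaller. They ran from -0.80 for CG32767 to -0.61 for 1624737_at, with CG42716 (-0.71), DIP-alpha (-0.67), stai (-0.67), br (-0.67), sno (-0.67), dnd (-0.64), CG13252 (-0.63) and CG32017 (-0.62) between them, and each had an adjusted p of 1.00. stai, the stathmin gene, whose product destabilises microtubules, was the 1 bright member of these at 9.09 and 9.10 on the controls and 8.38 and 8.47 at 10 ng. br, a zinc-finger gene of the ecdysone response, is in this group by its probe set 1636931_at (4.82 and 4.99 against 4.01 and 4.47). Its brightest probe set, 1635691_at, differed by -0.16.

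The precision of the arrays sets how far the absence of further calls can be read. For 7963 of the 8221 tested probe sets (96.9%) the 95% interval of the log2 change lay between -1 and 1. These intervals are not adjusted for the number of probe sets, and the spread behind them may be technical, so they may be too narrow. The median width of that interval on each side of the change was 0.49 for probe sets with a mean signal from 4 to 6 and 0.30 for those of 12 or more.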

How the data were processed

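Per the submitters' processing notes, the authors processed the arrays with GCRMA (version and settings not given in the sources used here). The deposited table holds linear intensities in 1 column per array. Of the values on the 4 arrays 5854 of 75808 exceed a 16-bit scanner at face value, and log2 reaches 22.7, whereas the natural log spans 1.69 to 15.7. Against nominal concentrations from general knowledge, the hybridisation spikes gave a mean slope of 0.99 for the natural log and 1.42 at face value. The natural log was therefore read as log2 signal, an inference.

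limma 3.58.1 in R 4.3.3 (lmFit, eBayes with an intensity trend) was fitted to the 4 arrays over probe sets at 4 or more on at least 2 of them. There were 2 residual and 8.35 prior degrees of freedom. A call is a Benjamini-Hochberg adjusted p under 0.05 over the 8221 probe sets. The data.table package (1.17.8) and matplotlib 3.10.9 in Python 3.11.15 were also used. Symbols come from the platform annotation (13647 non-control probe sets with 1, 402 with several, 4720 with none), of which 13544 single symbols were matched to RefSeq by Entrez ID and take its current symbol. Of 259 genes in 17 lists, 206 had a probe set with a single symbol, and the brightest by mean over the 4 arrays stood for each. No coordinates are given, as no build is stated. Named genes were the core clock genes, the called probe sets, the 10 largest uncalled differences each way among probe sets above the Tag mark on all arrays whose groups did not overlap, and up to 3 members per list with the smallest p. The comparison, lists and rules were chosen with earlier results of these data known. The fit was tested on simulated data, drawn as independent arrays with the spread that the fit itself estimates. Over 20 draws with 200 changed probe sets each, it recovered 75.7% of log2 changes of 1 and 99.7% of changes of 2. Of its calls 5.92% were false. Such data cannot show how technical replicates or uneven arrays would affect the calls. With 200 changed probe sets the Benjamini-Hochberg cut is also looser than in the data, where 10 were called. The recovered shares may therefore be too high for this comparison. Replicates were not copies: of 18952 values as deposited, 5 were equal to the last digit in the control pair and 6 in the 10 ng pair. The single 30 and 100 ng arrays were left out.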

Additional observations from a re-analysis of the deposited data

Results flagged for a closer look

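A pair of control probe sets outside the tested ones gave a signal on the 10 ng arrays far above that on the control arrays. They are those whose names carry the firefly luciferase entry, and their mean log2 differences were 7.17 and 8.17, with both 10 ng arrays above both controls. The labels name no luciferase plasmid, and its presence in the control transfection is not stated. No other result met a rule for a closer look, and groups of 2 arrays are too small for a test of single arrays.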

How the results depend on the processing

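The 10 calls, all higher, changed with the choice of probe sets, the scaling and the arrays. The number called was 0 with no filter and 0 with face-value log2. It was 6 after quantile normalization and 20 with the replicate block (18 higher, 2 lower, all 10 main calls among them). Without 1 array at a time it ran from 6 to 23 (23 without control array 1, of which 7 lower, 16 without control array 2, all higher, 6 without 10 ng array 1, all higher, and 6 without 10 ng array 2, of which 1 lower). In these fits the spread comes from the other group, and the lone array is assumed to vary like it. The prior degrees of freedom ran from 1.72 with no filter to infinite with the block, without either control array, with robust moderation or with the filter at 6, so these counts are not on 1 footing. The number was 10 with the filter on the mean and with no trend. It was also 10 with the filter at 6 (9 higher and 1 lower), where 6 of the 10 main calls were tested and passed. With 1 probe set per gene it was again 10, and 5 of the main calls were tested and passed. The face-value scale on the main probe sets, chosen after seeing the data, gave the same 10. That outcome was fixed in advance, as a constant factor leaves the limma p-values unchanged. This setting is counted in the totals of settings given for vri and the other genes. The number called was 7 after median centring, 8 with a pseudocount of 16 or all 6 arrays in the fit, and 14 with robust moderation. Of the 10, both probe sets of tim and Timp and 1627551_s_at were lost with no filter and at face value alone. CG31954 and 1625124_at were also lost after quantile normalization, after median centring, with the pseudocount, with all 6 arrays and without 10 ng array 1 or 2. CG10514 was also lost after quantile normalization or median centring, and 1640736_at after quantile normalization. Among uncalled genes CG13069 and TTLL6A passed in 4 of 16 settings each, CG16762 in 3 of 14, CG16957 in 1 of 16, vri and l(2)efl in 5 and 4 of 17, Arc1 in 3 of 16 and CG4789 in 2 of 15, all upward. spri passed in 2 of 16 and Ref1, singled out after its values were seen, in 3 of 16, both downward. The block was among these settings for each of them (CG4789 7.87e-28, spri 0.00667, l(2)efl 8.59e-05, Arc1 1.76e-05, vri 0.00146, Ref1 0.0145, as adjusted p). Apart from the admission of dimmer probe sets, the cause of these changes was not tested. The replicate numbers share only a name in the labels, and the deviations of same-numbered arrays correlated at 0.348 over probe sets. No called change reversed its sign over these settings, but 8 uncalled named genes did. After quantile normalization and median centring these were cwo 1623277_at (0.053 and 0.039), trpl (0.070 and 0.073) and CG31974 (0.0075 and 0.015). Without 1 array at a time the change ran from -1.03 to 0.92 for cwo 1623277_at, -0.88 to 0.12 for cwo 1631722_at, -0.26 to 0.82 for per, -0.28 to 0.62 for Pdp1, -0.11 to 0.072 for trpl, -0.16 to 0.22 for Ugt36A1, -0.62 to 0.23 for Eip78C, -0.43 to 0.22 for Mur29B and -0.23 to 0.076 for CG31974. Signal over background leaves tim 1631468_a_at and Timp 1641476_a_at with fold changes set against the background mark, and Clk near background on both 10 ng arrays. In all, 10548 of 18769 probe sets did not reach the filter.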
